A study of Mus musculus with 9 samples.

Results

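The genes described here encode 4 families of enzymes that change drugs, dietary compounds and hormones chemically: the CYP2 cytochromes P450, the glutathione S-transferases (GST), the UDP-glucuronosyltransferases (UGT) and the sulfotransferases (SULT). They were chosen by symbol from the 55385 genes of the table. The symbols were Cyp2 with 1 letter and a number, Gst with the class letter a, k, m, o, p, t or z, Ugt1 to Ugt3, and Sult with a number, without pseudogenes. Of 112 genes with such a symbol, 58 had a mean of at least 0.5 FPKM over the 9 libraries and are called the members. FPKM, the fragments per kilobase of gene scaled to the counted fragments of the library, can be compared between genes.

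Phase I enzymes such as the CYP2 family oxidize a compound and so give it a reactive group. Phase II enzymes then attach a soluble group: glutathione by GST, glucuronic acid or another sugar by UGT, and sulfate by SULT. In the kidney these enzymes are found mainly in the proximal tubule, which takes up organic acids from the blood and makes many of the conjugates that leave in urine.

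The kidneys of 9 male C57BL/6 mice were sequenced after selection of poly(A) RNA, with 1 library per mouse. The methods of the paper give 8 to 10 weeks as the age of the mice used to set up the model. Kidneys were taken at the end of the study, after the 4 weeks described below. The sample labels give the strain as C57BL/6, and the methods of the paper give it as C57BL/6J. Control mice (replicates 2, 4 and 5) were untreated. HN mice (4, 8 and 12) had hyperuricemic nephropathy, a kidney disease with high uric acid, brought on over 4 weeks by adenine at 0.16 g/kg together with oxonate, as its potassium salt, at 2.4 g/kg on alternate days. PEC mice (1, 2 and 3) received both agents and pectolinarigenin, a plant flavonoid, at 25 mg/kg by mouth every day for the same 4 weeks. Since PEC mice also received adenine and oxonate, no group shows pectolinarigenin alone. The sample titles name HN mice for all groups, Control included, so that groups were taken from the disease state and treatment entries. The library protocol speaks of fat while the tissue entry says kidney. The 5 markers of the early proximal tubule summed to at least 356 FPKM in every library. The 4 adipocyte markers summed to at most 109 FPKM, as given with the marker lists.

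The libraries held 57714111 to 81069646 counts (median 74397038). The PEC libraries stood apart in composition. Across 15497 genes, the rank correlation of the level, set against the mean of the 9 libraries, with transcript length was -0.32, -0.26 and -0.29 in PEC mice and 0.08 to 0.25 in the other 6. With GC content it was 0.27, 0.24 and 0.22 in PEC mice and -0.24 to -0.04 in the others. Counts at ribosomal RNA loci made up 0.30%, 1.72% and 0.30% of the PEC libraries and at most 0.0042% of the others. Mitochondrial genes held 13.3%, 12.9% and 16.3% of counts in Control mice, 6.01%, 6.22% and 6.34% in HN mice, and 13.0%, 10.3% and 13.7% in PEC mice. The part of these differences in the results was not tested, except that the counts and medians of called members and the values of single genes were also computed after removing a smooth dependence on length and GC content.

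Differences between groups were tested with edgeR on the deposited counts of the 15508 genes with a mean of at least 0.5 FPKM. Calls needed both a change of 1.5 times or more, which is 0.58 in log2, and an adjusted p no higher than 0.05. TMM normalization, which sets most genes to no change, gave factors of 0.84, 0.85 and 0.79 in Control mice, 1.15, 1.19 and 1.21 in HN mice, and 1.03, 1.01 and 1.03 in PEC mice. With library totals alone the median of all tested genes moved from near 0 to 0.51 (log2) for HN against Control, -0.23 for PEC against HN and 0.31 for PEC against Control. The name limma below stands for limma on log2(FPKM + 1), which moved it to 0.35, -0.19 and 0.19. FPKM carry these shifts, whereas log2 fold changes below are from edgeR with TMM unless another scale is named. The mean FPKM of 10 members was higher in HN than in Control mice while the edgeR estimate was negative, and none of these 10 was called.

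Every family was detected in Control kidney, at very unequal levels. CYP2 members passed the floor in 18 of 48 cases, GST in 19 of 22, UGT in 14 of 21 and SULT in 7 of 21. Few passed in Cyp2c (1 of 15), Sult2 (1 of 9), Cyp2b (1 of 5) and Ugt2a (0 of 3), groups known mainly from liver, gut or nose. Of the 54 genes under the floor, 20 had no count in any library. Cyp2b10 (0.52 FPKM) and Cyp2r1 (0.59) lay just over the floor, and Cyp2j7 (0.46) and Ugt2a3 (0.44) just under it. A member that is high in only 1 group passes more easily, so that counts over the 58 members describe the members alone.

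The summed FPKM of the 18 CYP2 members was 1643, 1611 and 1687 in Control mice, 518, 587 and 574 in HN mice, and 1028, 1444 and 1022 in PEC mice. The 3 groups did not overlap, with means of 1647 ± 37.8, 559.7 ± 36.9 and 1165 ± 242 (SD, n = 3 in each group). The order Control, PEC, HN also held for CYP2 with FPKM rescaled to a common sum and with FPKM divided by the TMM factor. The 19 GST members summed to 683, 632 and 517 in Control mice, 559, 588 and 590.3 in HN mice, and 1106, 921 and 1033 in PEC mice. Control and HN mice overlapped, and every PEC mouse lay above both. The HN to Control ratio of the GST sums was 0.95 on FPKM and 0.66 after TMM, and turned to 1.24 with a common sum.

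The 14 UGT members summed to 1175, 1151 and 1302 in Control mice, 483, 544 and 536 in HN mice, and 595, 731 and 531 in PEC mice. Control mice lay above all others, and PEC and HN mice overlapped. The PEC to HN ratio of the UGT sums was 1.19 on FPKM and 1.39 after TMM, and turned to 0.92 with a common sum. The 7 SULT members summed to 498, 449 and 384 in Control mice, 292, 214 and 218 in HN mice, and 208, 219 and 220.4 in PEC mice. Control mice were again highest, and the PEC to HN ratio was 0.89 on FPKM and 0.69 with a common sum, but 1.04 after TMM.

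**Figure D1:**
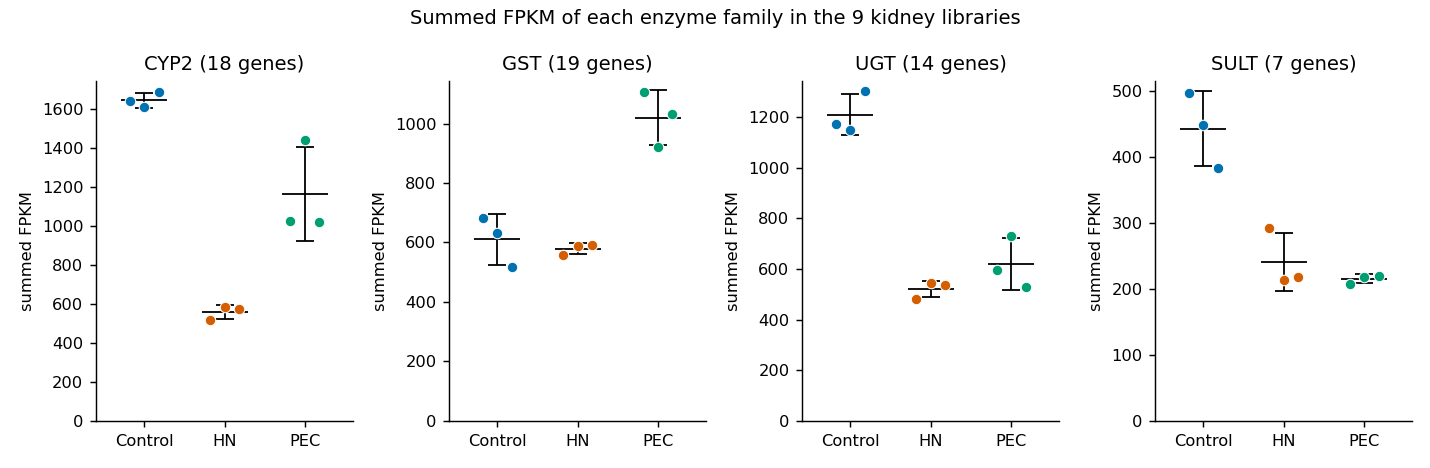
Summed FPKM (vertical axes) of the members of each family in each mouse, as points, with the group mean and SD as black bars (n = 3). PEC mice lie between Control and HN for CYP2 and above both for GST, while HN lies below Control for CYP2, UGT and SULT on all 3 scales, and for GST on FPKM and after TMM but not with a common sum, where HN is higher.

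A few genes carried each sum. Cyp2j5, Cyp2e1 and Cyp2a4 held 72.7% to 80.0% of the CYP2 sum in every library, and Sult1d1, Sult1c2 and Sult1a1 held 96.9% to 99.7% of the SULT sum. Ugt2b38, Ugt3a2 and Ugt2b37 held 63.1% to 80.9% of the UGT sum. GST were spread more evenly, with 48.1% to 58.6% in Gstm1, Gsta2 and Gstm5.

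The comparison of HN with Control asks which of these enzymes differ in the diseased kidney. Of the 58 members, 27 fell (46.6%, against 17.2% of all tested genes) and 8 rose (13.8%, against 18.7%), with a median log2 fold change of -0.56 against -0.01 for all tested genes. With library totals alone 21 fell and 12 rose, against 1144 and 6193 of all tested genes. By family, 13 CYP2 members fell and 1 rose (median -1.75), 6 GST fell and 3 rose (-0.47), 6 UGT fell and 2 rose (-0.35), and 2 SULT fell and 2 rose (-0.31). With library totals alone the CYP2 median was -1.22, while the GST (0.05), UGT (0.17) and SULT (0.20) medians turned positive, each still under the median of 0.51 for all genes. With limma the GST (0.02) and SULT (0.12) medians also turned positive, while the CYP2 median was -1.05 and the UGT median -0.21. The UGT median was 0.02 without HN 8, -0.15 without Control 5, -0.19 without Control 2, -0.59 without Control 4 and -0.76 without HN 4, and the SULT median was -0.12 without HN 12, -0.20 without HN 8 and -0.53 without HN 4. The number of UGT that rose was 1 without Control 2, Control 4, Control 5, HN 4 or PEC 3 and with DESeq2 or limma. SULT that fell were 1 without Control 4, Control 5, HN 8, PEC 1, PEC 2 or PEC 3, with library totals alone, with limma and with only the groups compared, and SULT that rose were 1 without HN 4 or with limma. CYP2 members that rose were 2 without Control 5 or with limma, 3 with library totals alone or on log2(FPKM + 0.1) and 0 after removal of length and GC content. FPKM of HN and Control mice did not overlap for 40 of 58 members, 23 of them lower in HN (39.7%, against 12.8% of all tested genes) and 17 higher (29.3%, against 58.2%). Of all tested genes 35.9% were called. In bulk tissue, fewer cells of a type and less RNA per cell cannot be told apart, for any member or marker given here.

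The comparison of PEC with HN asks what differs between treated and untreated diseased kidney. Every PEC library also stood apart in length, GC content and ribosomal RNA loci, as given above. Treatment and these differences between libraries therefore cannot be told apart, here or in PEC against Control. Of the 58 members, 31 rose (53.4%, against 16.6% of all tested genes) and 2 fell (3.4%, against 17.7%), with a median of 0.72 against -0.01. The 2 that fell were Ugt1a5 and Ugt2b5, and both calls were lost without HN 4, PEC 1 or PEC 3 and with only the groups compared (values for each gene follow with the UGT). Risers were 14 of 18 CYP2 members (median 1.35), 10 of 19 GST (0.76), 5 of 14 UGT (0.55) and 2 of 7 SULT (0.41). The UGT median was 0.06 without PEC 2, 0.24 without PEC 1 and 0.31 without HN 12. It was 0.34 with library totals alone and 0.15 with limma, and turned to -0.13 on log2(FPKM + 0.1). The SULT median was 0.19 with library totals alone and 0.08 with limma, and the number of SULT that rose was 0 without PEC 1 or with limma, 1 without HN 8, HN 12 or PEC 3 and 3 without HN 4. Library totals alone and log2(FPKM + 0.1) each gave 1 SULT higher and 1 lower, and 1 SULT was also called lower with limma, with DESeq2, with only the groups compared and without Control 4. With limma 3 UGT rose and 1 fell. The CYP2 median was 0.81 with limma. GST that rose were 8 with library totals alone (median 0.54) or with limma (0.54), and 7 after removal of length and GC content (0.52). With library totals alone 24 members rose and 3 fell, against 1705 and 4080 of the 15508 tested genes. FPKM of PEC and HN mice did not overlap for 36 members, 31 of them higher in PEC (53.4%, against 19.6% of all tested genes) and 5 lower (8.6%, against 44.3%). Of all tested genes 34.3% were called.

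The comparison of PEC with Control asks what differs from untreated kidney in the treated mice. Here 19 members were higher (32.8%, against 21.4% of all tested genes) and 15 lower (25.9%, against 20%), with a median of 0.12 against 0.01. Library totals alone gave 25 higher and 10 lower, against 32.7% and 11.3% of all tested genes. With limma 22 were higher and 10 lower, against 23.1% and 9.58%, and on log2(FPKM + 0.1) 23 were higher and 10 lower, against 30.2% and 12.4%. CYP2 had 4 higher and 6 lower (median -0.40), GST 9 higher and 2 lower (0.60), UGT 4 higher and 6 lower (-0.54), and SULT 2 higher and 1 lower (0.28). The UGT median was 0.00 without Control 2, -0.08 without PEC 1 and -0.82 without PEC 2, and the SULT median 0.08 without PEC 3, 0.18 without Control 5 and 0.42 without PEC 1. With library totals alone the medians were -0.10 for CYP2, 0.90 for GST, -0.25 for UGT and 0.58 for SULT, and with limma -0.15, 0.69, -0.31 and 0.40. Both settings gave 3 CYP2 and 1 GST lower in PEC, and 1 GST was lower without Control 2. At a floor of 1 FPKM, which 5 SULT passed, 1 SULT was called higher in each of the 3 comparisons. After removal of length and GC content only 4 GST were higher and 2 lower. The GST median was then 0.09 and the UGT median -0.245. Each pair of these comparisons shares a group of mice, so their values are given side by side and are not independent.

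**Figure D2:**
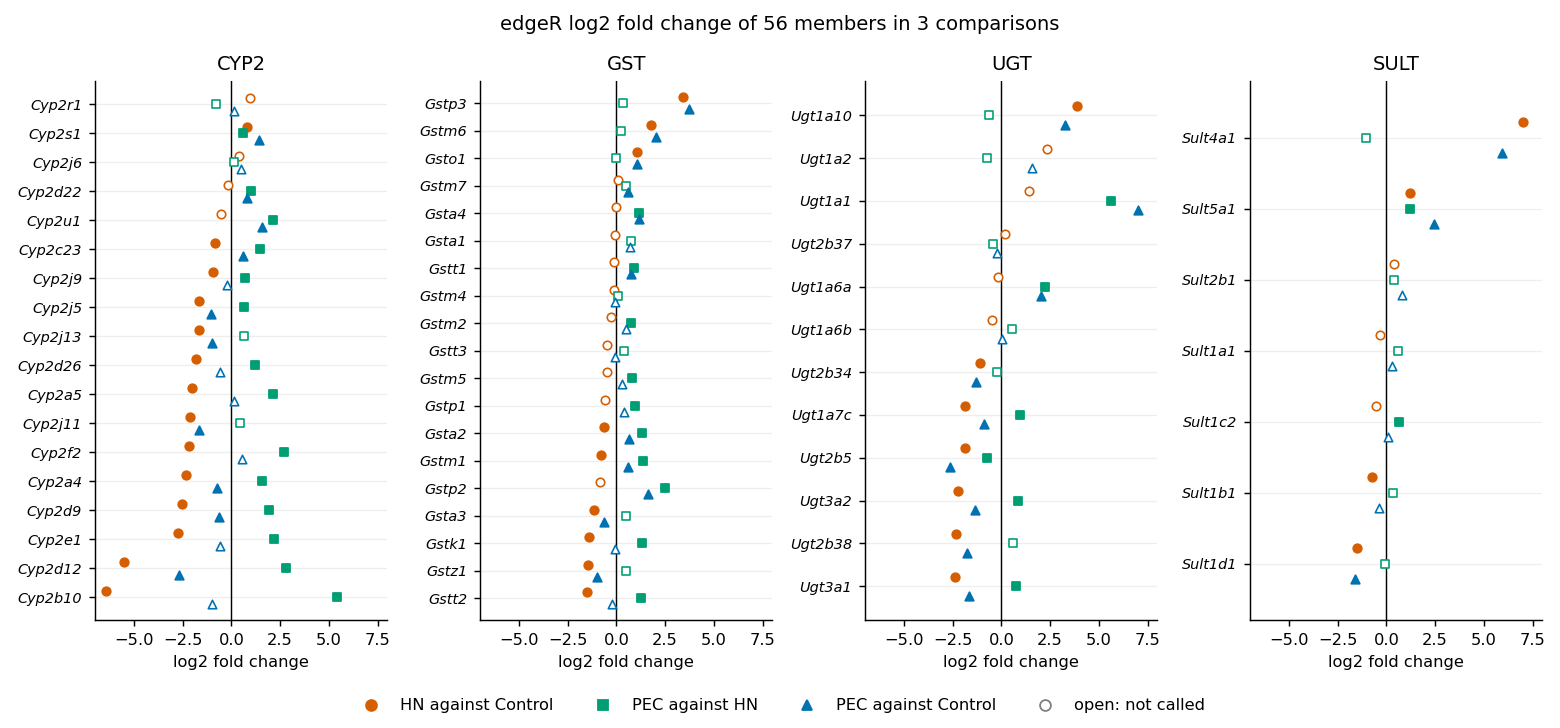
edgeR log2 fold change (horizontal axes) of 56 members in the 3 comparisons, ordered within each family by HN against Control, with filled marks for called and open marks for not called. Ugt1a5, high in HN 4 alone, and Ugt1a9, highest in PEC 1 and next in HN 8, are left out. On TMM scaling most CYP2 circles lie left of 0 and most squares right of it. With library totals alone the circles lie further right, where the median of all tested genes is 0.51.

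Of the 102 calls over the 58 members and 3 comparisons, 66 held in every alternative fit of the gene at the same thresholds, and 63 of these 66 were of at least 2-fold. The 66 were 25 of 35 for HN against Control, 20 of 33 for PEC against HN and 21 of 34 for PEC against Control. The commonest course was a fall in HN and a rise in PEC against HN, in 18 members (31.0%, against 7.33% of all tested genes). Both comparisons use the same HN mice. Of these, 8 were not called between PEC and Control mice, 7 remained lower in PEC and 3 were higher. Another 7 members fell in HN, were not called between PEC and HN and were lower in PEC than in Control mice. Among these, Cyp2j13 without PEC 3 (1.01), Gstz1 without HN 8 (0.75) and Gsta3 after removal of length and GC content (0.64) were called higher in PEC against HN. Cyp2j11 and Ugt2b38 also gained this call in some alternatives, as given with each gene. A further 10 members were called in no comparison, of which 6 were called in at least 1 alternative. The share of all tested genes with these courses is not given here.

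In phase I, the most abundant members of Control kidney were Cyp2e1 (ENSMUSG00000025479, chromosome 7, 140763739 to 140774987, plus strand), which oxidizes ethanol, acetone and small solvents, and Cyp2j5 (ENSMUSG00000052520, chromosome 4, 96628773 to 96664154, minus strand), an arachidonic acid epoxygenase of the proximal tubule. Coordinates are of GRCm38, as in the table. Cyp2e1 was measured at 574, 459 and 493 FPKM in Control mice 2, 4 and 5, 93.6, 104 and 121 in HN mice 4, 8 and 12, and 306, 606 and 316 in PEC mice 1, 2 and 3. Every HN mouse was below every Control mouse, and PEC mice lay above HN, with PEC 2 above all Control mice. The edgeR log2 fold change of Cyp2e1 was -2.76 (SE 0.27, adjusted p = 4.83e-05) for HN against Control, 2.18 (SE 0.26, adjusted p = 0.000258) for PEC against HN and -0.57 (SE 0.25, adjusted p = 0.0797) for PEC against Control. Without PEC 2 this last value was -0.97 and Cyp2e1 was called lower than in Control.

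Cyp2j5 was measured at 489, 513 and 604 FPKM in Control mice, 222, 243 and 247 in HN mice, and 308, 364 and 268 in PEC mice. The 3 groups did not overlap, in the order Control, PEC, HN. Its edgeR log2 fold change was -1.67 (SE 0.14, adjusted p = 2.31e-05) for HN against Control, 0.64 (SE 0.14, adjusted p = 0.00532) for PEC against HN and -1.04 (SE 0.14, adjusted p = 0.000312) for PEC against Control. The rise in PEC was under the fold threshold without PEC 2 (0.52), with limma (0.39) and with library totals alone (0.42).

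Among the other genes of the Cyp2j cluster on chromosome 4, Cyp2j11 was measured at 99.5, 97.9 and 112 FPKM in Control mice, 30.1, 34.4 and 35.8 in HN mice, and 36.04, 50.03 and 31.5 in PEC mice, with all Control mice above the rest, and PEC and HN overlapping. It fell in HN, -2.12 (SE 0.17, adjusted p = 1.78e-05), and was lower in PEC than in Control mice, -1.66 (SE 0.17, adjusted p = 6.89e-05). Against HN the value was 0.47, which was not called, though it was without PEC 3 (0.62) and after removal of length and GC content (0.84). Cyp2j13 gave -1.68 and -1.02 against Control, and the second of these calls was lost without Control 4 (-1.08), Control 5 (-0.81) or PEC 1 (-1.03), with library totals alone (-0.71), with limma (-0.85), with only the groups compared (-0.99) and after removal of length and GC content (-0.88). Cyp2j9 fell in HN (-0.94) and rose in PEC against HN (0.71), though the rise was under the fold threshold without HN 4 (0.57) and both calls were lost with library totals alone (-0.41 and 0.49) and with limma (-0.32 and 0.34). Cyp2j6, at 7.15, 7.51 and 9.3 FPKM in Control mice, 14.8, 13.4 and 15.8 in HN mice, and 14.3, 13.8 and 12.5 in PEC mice, was called in no comparison with TMM on all 9 libraries. It was called higher than Control with library totals alone (0.90 in HN and 0.81 in PEC) and with limma (0.81 and 0.70), in PEC also without Control 5 (0.66), and after removal of length and GC content it was called higher in PEC against both HN (0.80) and Control (1.01).

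Cyp2a4 (ENSMUSG00000074254, chromosome 7, 26307169 to 26315088, plus strand), a steroid hydroxylase, was the next in abundance. It was measured at 216, 276 and 252 FPKM in Control mice, 60.3, 89.9 and 60.3 in HN mice, and 173, 183 and 178 in PEC mice. The groups did not overlap, and PEC mice lay within a narrow range between HN and Control. Cyp2a4 fell in HN, -2.32 (SE 0.17, adjusted p = 1.12e-05), rose in PEC against HN, 1.58 (SE 0.16, adjusted p = 0.000138), and was lower in PEC than in Control mice, -0.74 (SE 0.16, adjusted p = 0.00424). The last call was lost with limma (-0.47) and with library totals alone (-0.43). Its neighbour Cyp2a5, a coumarin hydroxylase, was at 30.97, 56.6 and 23.4 FPKM in Control mice, 11.03, 18.4 and 9.21 in HN mice, and 42.7, 50.1 and 49.5 in PEC mice, with PEC and Control mice overlapping. Cyp2a5 gave -2.00 for HN against Control, 2.11 for PEC against HN and 0.11 for PEC against Control, of which the first 2 were called. Transcripts of this pair are 98.22% identical, so reads may be split between them in either direction. With their counts summed, the pair gave -2.27, 1.69 and -0.58, and the last fell just under the fold threshold but was called without Control 2 (-0.68) or PEC 2 (-0.60).

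The promoters of both are shown because their transcripts are nearly identical. Both genes fell in HN and rose in PEC against HN, whereas only Cyp2a4 was called lower in PEC than in Control mice. RefSeq promoters (GRCm38.p6) of 300 bases, 250 before and 50 after the start site, were found for 49 of the 58 members, 59 promoters in all. They were searched on both strands for 3 motifs: the antioxidant response element (ARE, TGACNNNGC), the xenobiotic response element core (XRE, GCGTG) and an HNF4 motif (CAAAGTCCA). Of 32851 promoters of all genes, 12.4% held the ARE, 32.4% the XRE and 0.47% the HNF4 motif. Of the 59 member promoters, 4 held the ARE (6.78%), 17 the XRE (28.8%) and 1 the HNF4 motif (1.69%). A match is a description, not a site or a cause. The sequences run 5′ to 3′ on the strand of the gene, from chr7:26306942-26307241, plus strand, and from chr7:26835089-26835388, plus strand. Neither holds any of the 3 motifs, and in the promoters of the GST below motifs are in capitals.
Cyp2a4: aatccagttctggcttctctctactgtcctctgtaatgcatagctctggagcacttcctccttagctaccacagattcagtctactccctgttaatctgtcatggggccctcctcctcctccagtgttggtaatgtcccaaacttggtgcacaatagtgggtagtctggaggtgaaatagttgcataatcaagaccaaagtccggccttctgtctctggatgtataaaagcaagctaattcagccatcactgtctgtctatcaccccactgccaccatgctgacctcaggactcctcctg
Cyp2a5: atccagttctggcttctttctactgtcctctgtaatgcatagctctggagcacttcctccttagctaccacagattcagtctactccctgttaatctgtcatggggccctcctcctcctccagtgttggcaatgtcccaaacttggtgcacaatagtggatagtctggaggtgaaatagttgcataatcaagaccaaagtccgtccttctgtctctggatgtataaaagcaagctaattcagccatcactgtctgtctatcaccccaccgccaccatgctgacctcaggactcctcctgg

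Among members with a promoter, the XRE was found in 7 of 23 that fell in HN, 2 of 7 that rose and 5 of 19 that were not called.

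Cyp2d26 was measured at 82.7, 69.1 and 56.04 FPKM in Control mice, 32.7, 26.5 and 23.7 in HN mice, and 44.8, 47.1 and 73.7 in PEC mice. HN mice were lowest, and PEC and Control mice overlapped. Cyp2d26 fell in HN, -1.81 (SE 0.23, adjusted p = 0.000212), rose in PEC against HN, 1.23 (SE 0.22, adjusted p = 0.0022), and was not called between PEC and Control mice at -0.58, though it was called lower without PEC 3 (-0.83), without Control 5 (-0.69), with no filter on low values (-0.65) and after removal of length and GC content (-0.98). Cyp2d9, a testosterone hydroxylase, was at 47.2, 36.1 and 33.1 FPKM in Control mice, 9.72, 10.5 and 8.03 in HN mice, and 23.5, 34.8 and 32.5 in PEC mice and gave -2.53 for HN against Control, 1.92 for PEC against HN and -0.61 for PEC against Control. All 3 were called, the last not without Control 2 (-0.46) or PEC 1 (-0.46), with library totals alone (-0.32), with limma (-0.35) or at a floor of 1 FPKM (-0.58). Cyp2d12, at 24.5, 18.96 and 15.99 FPKM in Control mice, 0.8, 0.76 and 0.28 in HN mice, and 2.16, 4.17 and 4.61 in PEC mice, had a deep fall in HN, -5.50 (SE 0.48, adjusted p = 2.61e-05). It rose in PEC against HN, 2.80 (SE 0.43, adjusted p = 0.000882), and every PEC mouse was still below every Control mouse. Cyp2d22, another member of the subfamily, was measured as well. At 5.23, 4.63 and 3.09 FPKM in Control mice, 5.2, 5.21 and 5.7 in HN mice, and 9.33, 9.15 and 8.84 in PEC mice it was not called in HN, rose in PEC against HN, 1.00, and was higher in PEC than in Control mice, 0.82, a call lost after removal of length and GC content (0.47).

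Among the low CYP2 members, Cyp2b10, a P450 induced by phenobarbital, was at 0.89, 0.81 and 1.21 FPKM in Control mice, 0.02, 0 and 0.02 in HN mice, and 0.48, 0.91 and 0.34 in PEC mice. HN mice held 4, 0 and 4 counts, so that its fall, -6.45 (SE 0.74, adjusted p = 0.000123), and its rise in PEC, 5.44 (SE 0.72, adjusted p = 0.000438), rest on counts near 0 in HN. PEC and Control mice overlapped. Cyp2u1, a fatty acid hydroxylase, was at 0.63, 0.57 and 0.62 FPKM in Control mice, 0.56, 0.47 and 0.73 in HN mice, and 2.05, 1.69 and 2.84 in PEC mice, so that PEC stood above the other groups, with 2.13 (SE 0.24, adjusted p = 0.00019) against HN and 1.58 (SE 0.24, adjusted p = 0.000537) against Control. Cyp2s1, a P450 of epithelia, was at 2.91, 2.18 and 1.96 FPKM in Control mice, 4.31, 6.74 and 6.39 in HN mice, and 7.06, 8.27 and 6.88 in PEC mice and was the CYP2 member called higher in HN. It gave 0.81 for HN against Control, 0.59 for PEC against HN and 1.40 for PEC against Control. The first call was lost after removal of length and GC content (0.54), and the second without HN 4 (0.43) or PEC 2 (0.50), with DESeq2 or median-of-ratios factors (0.58 each), with library totals alone (0.36), with limma (0.32) and with no filter on low values (0.54). Cyp2c23, an epoxygenase, was at 9.2, 11.2 and 6.76 FPKM in Control mice, 7.98, 6.24 and 6.79 in HN mice, and 18.2, 15.5 and 15.9 in PEC mice. Cyp2c23 fell in HN (-0.86, but -0.34 with library totals alone and -0.31 with limma, not called) and rose in PEC against HN (1.47). It was higher in PEC than in Control mice (0.61), a call lost without Control 5 (0.47) or PEC 1 (0.54) and with no filter on low values (0.55).

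Cyp2f2, known from the club cells of the airway, was at 0.92, 0.79 and 0.76 FPKM in Control mice, 0.15, 0.42 and 0.2 in HN mice, and 1.87, 1.21 and 1.29 in PEC mice, and gave -2.15 for HN against Control, a call lost with limma (-0.54), and 2.70 for PEC against HN. The 5 markers of airway and lung, of which 2 passed the floor, summed to 0.11, 0 and 0 FPKM in Control mice, 0.08, 0.17 and 0.18 in HN mice, and 54.5, 49.3 and 17.9 in PEC mice. The most abundant, Scgb1a1, was at 0 in all Control mice and at 51.6, 45.6 and 17.4 in PEC mice, and Sftpc at 0 in all Control and HN mice and at 2.20, 2.83 and 0.43 in PEC mice. Their part in the Cyp2f2 values was not tested, and Control mice held 0.92, 0.79 and 0.76 FPKM of Cyp2f2 with Scgb1a1 at 0.

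**Figure D3:**
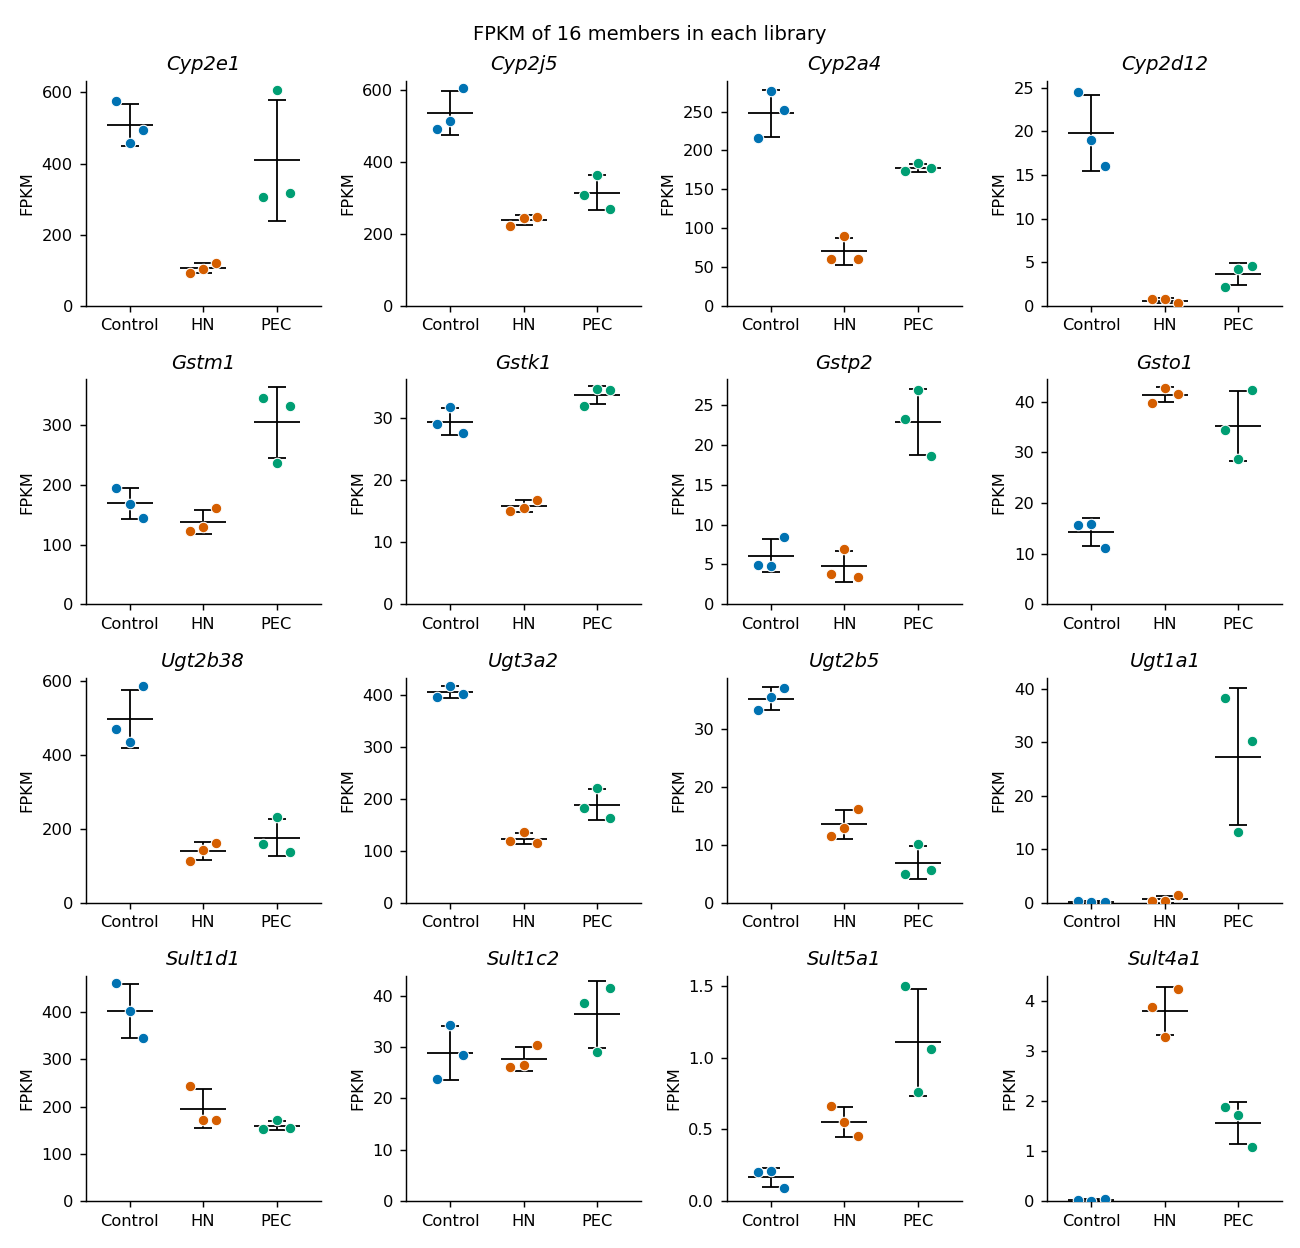
FPKM (vertical axes) of 16 members, 4 per family, in each mouse, as points, with the group mean and SD as black bars (n = 3). Cyp2e1 rises from 93.6 to 121 in HN to 306 to 606 in PEC mice, while Sult1d1 stays at 152 to 171 in PEC against 172 to 243 in HN mice.

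Of the GST, Gstm1 (ENSMUSG00000058135, chromosome 3, 108012255 to 108017973, minus strand), a mu-class enzyme, was the most abundant. Gstm1 was measured at 196, 167 and 144 FPKM in Control mice 2, 4 and 5, 122.6, 130.03 and 161 in HN mice 4, 8 and 12, and 347, 237 and 332 in PEC mice 1, 2 and 3. HN and Control mice overlapped, and every PEC mouse lay above both. The rise in PEC against HN was 1.38 (SE 0.17, adjusted p = 0.000284). The fall in HN, -0.79 (SE 0.17, adjusted p = 0.00403), was lost with limma (-0.29) and with library totals alone (-0.26). The excess over Control, 0.60 (SE 0.17, adjusted p = 0.0143), was lost without Control 4 (0.57), Control 5 (0.52), PEC 1 (0.49) or PEC 3 (0.55) and with no filter on low values (0.53), and was 0.10 after removal of length and GC content.

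Gsta2, of the alpha class, was at 115, 89.5 and 60.9 FPKM in Control mice, 79.2, 92.4 and 65.1 in HN mice, and 193, 150.5 and 159 in PEC mice. Again PEC mice were above both other groups, which overlapped. It rose in PEC against HN, 1.32 (SE 0.22, adjusted p = 0.00137). Its fall in HN (-0.65) was lost without Control 2 (-0.43), Control 4 (-0.66), HN 4 (-0.67) or HN 12 (-0.52), with library totals alone (-0.14), with limma (-0.13) and with only the groups compared (-0.62), and its excess over Control (0.67) without Control 4 (0.66), Control 5 (0.48) or PEC 1 (0.55), with no filter on low values (0.60) and after removal of length and GC content (0.43). Transcripts of Gsta2 and Gsta1 are 97.24% identical, and with their counts summed the pair gave -0.60, 1.27 and 0.67 in the same 3 comparisons. The first was lost with library totals alone (-0.09), with only the groups compared (-0.58) and when any library but Control 5 or PEC 1 was left out (-0.69 to -0.37), and the last without Control 4 (0.65), Control 5 (0.48) or PEC 1 (0.55). Gsta4, which conjugates aldehydes from oxidized lipids, was at 14.7, 15.01 and 11.1 FPKM in Control mice, 21.4, 16.7 and 19.01 in HN mice, and 33.8, 23.1 and 52.2 in PEC mice, and rose by 1.17 against HN and was 1.16 above Control. Both of its calls held in every alternative fit.

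Gsta3, also of the alpha class, was at 19.8, 19.6 and 15.4 FPKM in Control mice, 12.2, 12.7 and 9.89 in HN mice, and 13.4, 15.1 and 13.8 in PEC mice, with Control mice above all others. Gsta3 fell in HN, -1.14 (SE 0.12, adjusted p = 8.63e-05), and was lower in PEC than in Control mice, -0.63, a call lost without Control 2 (-0.58), with library totals alone (-0.33), with limma (-0.34) and after removal of length and GC content (-0.53). Gstm5 was at 79.2, 78.7 and 60.9 FPKM in Control mice, 67.1, 80.2 and 71.8 in HN mice, and 109, 112 and 102 in PEC mice, and PEC mice lay above the other groups. It rose in PEC against HN, 0.79 (SE 0.10, adjusted p = 0.000338), which fell under the fold threshold with limma (0.55), with library totals alone (0.57) and after removal of length and GC content (0.53). For HN against Control its estimate was -0.49, not called, and turned to 0.03 with library totals alone and to 0.01 with limma. PEC was called higher than Control with library totals alone (0.60). The promoters of Gsta3 (chr1:21240335-21240634, plus strand) and Gstm5 (chr3:107895604-107895903, plus strand) are shown because they are 2 of the 4 members with an ARE, the motif known from GST genes. In Gsta3 the ARE stands at -121, counted from the start site. In Gstm5 an XRE stands at -171, and the ARE at -42 overlaps a further XRE at -38.
Gsta3: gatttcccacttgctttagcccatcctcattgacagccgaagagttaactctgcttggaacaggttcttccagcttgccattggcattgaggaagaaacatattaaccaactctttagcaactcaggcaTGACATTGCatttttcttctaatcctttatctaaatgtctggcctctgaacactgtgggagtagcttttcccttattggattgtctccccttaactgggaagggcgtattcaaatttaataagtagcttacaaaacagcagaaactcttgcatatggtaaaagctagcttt
Gstm5: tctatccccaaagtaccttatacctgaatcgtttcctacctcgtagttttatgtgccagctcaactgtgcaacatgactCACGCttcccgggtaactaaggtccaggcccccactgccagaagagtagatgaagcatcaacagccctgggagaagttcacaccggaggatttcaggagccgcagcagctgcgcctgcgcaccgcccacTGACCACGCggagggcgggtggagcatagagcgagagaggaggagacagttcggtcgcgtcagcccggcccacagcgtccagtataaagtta

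The other members with an ARE are Cyp2j6 and Gstm7. Nfe2l2, the factor known to bind this motif, was at 24.9, 21.6 and 18.97 FPKM in Control mice, 45.5, 34.1 and 39.95 in HN mice, and 31.8, 30.6 and 30.4 in PEC mice and was called in no comparison on TMM scaling, but was called higher in HN with library totals alone (0.90) and with limma (0.84).

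Gstk1, a GST of mitochondria and peroxisomes, was at 28.97, 31.7 and 27.5 FPKM in Control mice, 15.04, 15.5 and 16.9 in HN mice, and 31.9, 34.6 and 34.4 in PEC mice. HN mice stood below all others by a wide margin. It gave -1.39 (SE 0.08, adjusted p = 3.48e-06) for HN against Control and 1.33 (SE 0.08, adjusted p = 1.65e-05) for PEC against HN, and was not called between PEC and Control (-0.06). Gstt2, of the theta class, was at 30.9, 30.2 and 23.1 FPKM in Control mice, 12.3, 14.9 and 14.1 in HN mice, and 26.7, 30.2 and 28.5 in PEC mice, with -1.52 and 1.28 in the same comparisons and PEC and Control mice overlapping. Between PEC and Control Gstt2 was -0.24, not called, but was called lower after removal of length and GC content (-0.67). Gstz1, an enzyme of tyrosine breakdown, was at 26.04, 25.6 and 24.6 FPKM in Control mice, 9.97, 17.8 and 11.8 in HN mice, and 14.5, 19.1 and 12.9 in PEC mice. Gstz1 fell in HN, -1.45 (SE 0.21, adjusted p = 0.000522), and was lower in PEC than in Control mice, -0.97 (SE 0.21, adjusted p = 0.00401), with PEC and HN mice overlapping.

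Gstt1, which lies beside Gstt2, was at 54.7, 57.9 and 46.4 FPKM in Control mice, 70.7, 61.5 and 70.4 in HN mice, and 123.3, 97.8 and 101 in PEC mice. On FPKM every HN mouse was above every Control mouse, but the edgeR estimate was -0.14, and it was 0.38 with library totals alone and 0.35 with limma. It rose in PEC against HN, 0.91 (SE 0.11, adjusted p = 0.000308), and was higher in PEC than in Control mice, 0.76 (SE 0.11, adjusted p = 0.000511). After removal of length and GC content neither call was made (0.51 and 0.25). Gsto1, the omega-class enzyme that reduces dehydroascorbate, was the most abundant GST called higher in HN, at 15.7, 15.9 and 11.1 FPKM in Control mice, 39.8, 42.7 and 41.6 in HN mice, and 34.5, 28.7 and 42.4 in PEC mice. It rose in HN, 1.05 (SE 0.16, adjusted p = 0.000638), and PEC and HN mice overlapped. It was higher in PEC than in Control mice (1.05, but 0.58 and not called after removal of length and GC content).

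The pi class lies in a row on chromosome 19. Gstp1 was at 46.6, 42.8 and 38.02 FPKM in Control mice, 37.4, 41.4 and 42.9 in HN mice, and 74.3, 79.6 and 47.6 in PEC mice and Gstp2 at 4.93, 4.82 and 8.48 FPKM in Control mice, 3.8, 6.98 and 3.44 in HN mice, and 23.2, 26.8 and 18.6 in PEC mice. Both were highest in PEC mice, without overlap. Gstp2 rose in PEC against HN, 2.50 (SE 0.35, adjusted p = 0.000532), and was higher than in Control, 1.64 (SE 0.34, adjusted p = 0.00308). Gstp1 rose in PEC against HN, 0.96 (SE 0.17, adjusted p = 0.002), but not after removal of length and GC content (0.52). Between PEC and Control it was 0.40, not called, was called without PEC 3 (0.61), with library totals alone (0.70) and with limma (0.62), and turned to -0.21 after removal of length and GC content. In HN it was -0.56, not called, and was called lower without Control 5 (-0.61) and after removal of length and GC content (-0.73). Gstp3 and Gstm6 were low in Control and higher in both other groups. Gstp3 was at 0.26, 0 and 0.05 FPKM in Control mice, 1.79, 2.05 and 0.83 in HN mice, and 1.8, 1.59 and 1.7 in PEC mice, with 3.40 and 3.74 against Control, and Gstm6 at 0.36, 0.35 and 0.43 FPKM in Control mice, 1.53, 2.32 and 1.83 in HN mice, and 2.29, 1.36 and 2.04 in PEC mice, with 1.78 and 2.03.

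Gstm2 rose in PEC against HN (0.76, but not called without PEC 3 at 0.52, with library totals alone at 0.54, with limma at 0.47 and after removal of length and GC content at 0.40), and Gstm7 was higher in PEC than in Control mice (0.60). The Gstm7 call was lost without Control 4 (0.61), Control 5 (0.46), HN 8 (0.60), PEC 1 (0.44) or PEC 2 (0.62), with only the groups compared (0.62) and with no filter on low values (0.54), and the value was 0.09 after removal of length and GC content. Gsta1, Gstm4 and Gstt3 were called in no comparison, but Gsta1 was called higher in PEC than in Control mice with library totals alone (1.00), with limma (0.89), with only the groups compared (0.71) and without HN 4 (0.69), and against HN without HN 4 (1.20).

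Of the UGT, Ugt2b38 (ENSMUSG00000061906, chromosome 5, 87409942 to 87424203, minus strand) and Ugt3a2 (ENSMUSG00000049152, chromosome 15, 9335550 to 9370955, plus strand) were the most abundant. Ugt2b38 was measured at 471, 436 and 586 FPKM in Control mice 2, 4 and 5, 113, 143 and 162 in HN mice 4, 8 and 12, and 158, 233 and 137 in PEC mice 1, 2 and 3. Control mice stood far above the rest, and PEC and HN mice overlapped. Ugt2b38 fell in HN, -2.34 (SE 0.23, adjusted p = 5.29e-05), and was lower in PEC than in Control mice, -1.77 (SE 0.23, adjusted p = 0.000236). Against HN it was 0.57 and not called, but was called higher without PEC 3 (0.74) and after removal of length and GC content (1.07). Ugt2b5, with a transcript 95.49% identical, was at 33.2, 35.5 and 37.04 FPKM in Control mice, 11.4, 12.9 and 16.2 in HN mice, and 4.97, 10.2 and 5.58 in PEC mice. It was highest in Control and lowest in PEC mice, without overlap.

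Ugt2b5 gave -1.88 for HN against Control, -0.73 for PEC against HN and -2.61 for PEC against Control. All 3 were called, but the fall in PEC against HN was lost with only the groups compared (-0.73) and without Control 2 (-0.73), Control 4 (-0.73), Control 5 (-0.73), HN 4 (-0.83), HN 8 (-0.77), HN 12 (-0.59), PEC 1 (-0.54) or PEC 3 (-0.58), and was -0.26 after removal of length and GC content. With the counts of Ugt2b38 and Ugt2b5 summed, the values were -2.31, 0.50 and -1.81, the first and last of them called, and the second was called without PEC 3 (0.66). Ugt2b34 was at 6.71, 6.45 and 6.68 FPKM in Control mice, 4.48, 4.22 and 4.58 in HN mice, and 3.17, 3.26 and 3.34 in PEC mice and gave -1.08 and -1.28 against Control, where the first was lost with library totals alone (-0.55) and with limma (-0.49). Ugt2b37 was at 57.5, 62.4 and 63.8 FPKM in Control mice, 73.2, 96.8 and 126 in HN mice, and 36.4, 91.05 and 58.5 in PEC mice and was called in no comparison, though it was called lower in PEC than in HN mice without PEC 2 (-0.81). On FPKM every HN mouse exceeded every Control mouse for Ugt2b37, while its edgeR estimate was 0.19 and -0.01 without HN 12.

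The Ugt3a enzymes, which transfer sugars other than glucuronic acid, are a pair of neighbours. Ugt3a2 was at 397, 418 and 402 FPKM in Control mice, 119, 136 and 115 in HN mice, and 181, 221 and 163 in PEC mice, and the groups followed the order Control, PEC, HN without overlap. It fell in HN, -2.21 (SE 0.13, adjusted p = 3.87e-06), rose in PEC against HN, 0.85 (SE 0.12, adjusted p = 0.000659), and stayed lower than in Control, -1.37 (SE 0.12, adjusted p = 4.1e-05). Ugt3a1, its neighbour on chromosome 15, was at 93.1, 107 and 95.9 FPKM in Control mice, 24.8, 29.7 and 24.4 in HN mice, and 34.1, 40.1 and 36.6 in PEC mice in the same order. It gave -2.40 for HN against Control, 0.72 for PEC against HN and -1.68 for PEC against Control, all 3 called, and the rise in PEC was under the fold threshold with limma (0.48) and with library totals alone (0.51).

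The Ugt1a genes are 8 members of 1 locus on the plus strand of chromosome 1. Their starts run from 88055388 (Ugt1a10) to 88211959 (Ugt1a1), and 5 of the 8 end at 88218997, because each start is joined to the same last exons. Transcripts of Ugt1a6a and Ugt1a7c in the annotation are 100% identical over the compared stretch. Reads in the shared exons can be assigned to any of them, so values of single Ugt1a genes are uncertain. The sum over the 8 genes does not depend on how reads are split among them. Ugt1a8, which shares these exons, was under the floor with 93 counts in HN 4 and 0 in the other libraries and is not in the sum. How reads in shared exons were counted is not given in the sources used here, and some may be missing from every Ugt1a gene. The sum was 514, 392 and 478 CPM (counts scaled to the library total) in Control mice, 408, 369.6 and 353 in HN mice, and 669, 524 and 449 in PEC mice.

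On these sums Control mice overlapped with HN and PEC mice, while every PEC mouse was above every HN mouse. The edgeR log2 fold change of the summed locus was -0.81 (SE 0.17, adjusted p = 0.00338) for HN against Control, 0.75 (SE 0.17, adjusted p = 0.00571) for PEC against HN and -0.06 (SE 0.17, adjusted p = 0.78) for PEC against Control. On library totals alone these were -0.29, 0.54 and 0.25, none of them called. The last also turned positive without Control 2 (0.01), Control 5 (0.0015) or PEC 3 (0.08), not called. With the counts of Ugt1a8 added the TMM values were -0.81, 0.75 and -0.06. Within the locus, Ugt1a7c held 90.3%, 93.0% and 90.3% of the counts in Control mice, 32.0%, 38.3% and 66.3% in HN mice, and 49.8%, 64.3% and 40.7% in PEC mice. Ugt1a7c fell in HN, -1.85 (SE 0.29, adjusted p = 0.000698), at 100.3, 78.9 and 94.1 FPKM in Control mice, 27.97, 30.2 and 49.6 in HN mice, and 69.6, 72.05 and 38.1 in PEC mice. Its rise in PEC against HN (0.98) was lost without HN 4 (0.84), HN 8 (0.87), PEC 1 (0.86) or PEC 2 (0.83) and with limma (0.71), and its shortfall against Control (-0.87) without Control 2 (-0.81), Control 5 (-0.81) or PEC 3 (-0.61), with library totals alone (-0.56) and with limma (-0.64).

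Ugt1a1, which conjugates bilirubin, was at 0.24, 0.15 and 0.13 FPKM in Control mice, 0.26, 0.3 and 1.39 in HN mice, and 38.4, 13.3 and 30.2 in PEC mice. All 3 PEC mice stood far above the other 6. It gave 5.64 (SE 0.73, adjusted p = 0.000388) for PEC against HN and 7.03 (SE 0.80, adjusted p = 0.000126) for PEC against Control. Ugt1a6a, which conjugates simple phenols, was at 4.35, 4.57 and 3.51 FPKM in Control mice, 4.05, 2.02 and 9.28 in HN mice, and 27.1, 14.8 and 19.01 in PEC mice and was likewise highest in PEC mice, with 2.23 against HN and 2.04 against Control. Ugt1a10 was at 0.6, 0.79 and 0.73 FPKM in Control mice, 18.5, 7.59 and 18.3 in HN mice, and 10.9, 7.57 and 5.75 in PEC mice, low in Control and higher in both other groups, with 3.88 and 3.25 against Control.

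The other Ugt1a genes varied widely within groups. Ugt1a5 was at 0.02, 0.01 and 0 FPKM in Control mice, 72.5, 0 and 0.02 in HN mice, and 0, 0 and 0.03 in PEC mice. HN 4 alone was high, and without it the estimates were -0.42 for HN against Control and -0.38 for PEC against HN, neither called. The first call was also lost without Control 2 (11.51), Control 4 (10.27), Control 5 (9.82) or PEC 3 (10.37), and the second without PEC 1 (-10.56), PEC 2 (-10.66) or PEC 3 (-14.91). Both were lost with DESeq2 (10.45 and -11.18), with limma (2.06 and -2.06) and with only the groups compared (10.39 and -11.20). Ugt1a2 reached 76.4 FPKM in HN 8 and 32.4 in PEC 3, and was not called, and Ugt1a6b ranged from 0.02 to 13.5 FPKM in PEC mice and was not called. Ugt1a9 had no count in Control mice, 106, 778 and 16 in HN mice, and 5725, 4 and 15 in PEC mice. Against a floor of 3 counts per Control library, its mean level was at least 95.2-fold higher in HN and at least 654-fold higher in PEC mice. Without HN 8 the first bound was 20.9-fold, and without PEC 1 the second was 4.08-fold. Its edgeR call in PEC against Control was lost when any library but PEC 2 or PEC 3 was left out, with DESeq2, with limma, with no filter on low values and with only the groups compared. With Ugt1a9 at these bounds the UGT medians were -0.35 and -0.54 against Control and those of the 58 members -0.56 and 0.12, as before.

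**Figure D4:**
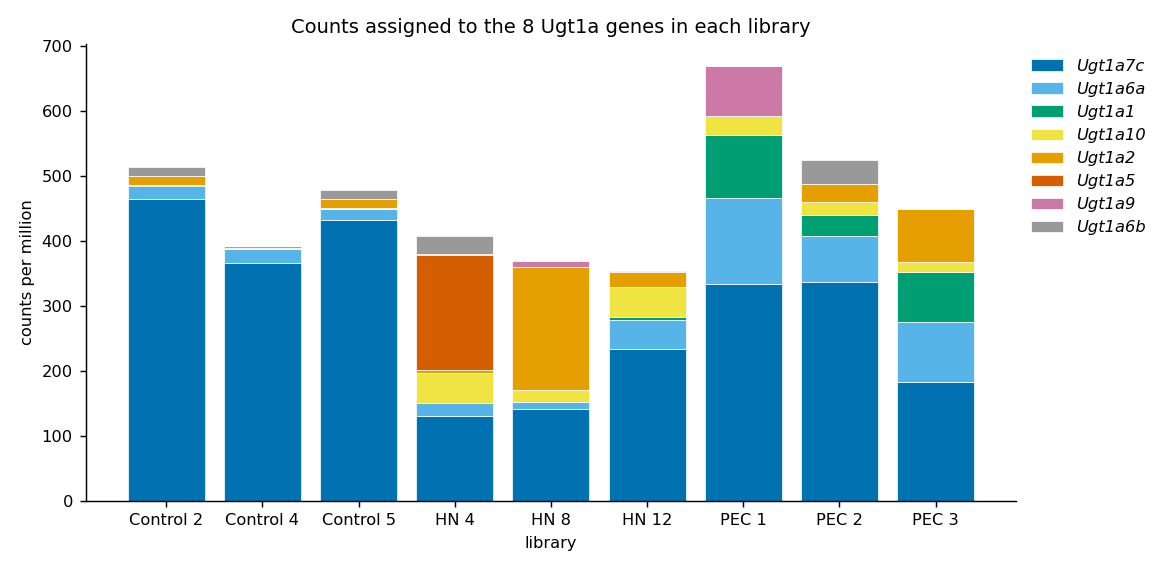
CPM (vertical axis) assigned to each of the 8 Ugt1a genes in each library (horizontal axis), stacked to the sum of the locus. Ugt1a7c fills 90.3% to 93.0% of the Control bars, Ugt1a1 and Ugt1a6a widen in PEC, and Ugt1a5 and Ugt1a2 are large in HN 4 and HN 8; the split within a bar depends on how shared exons were counted.

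Outside the Ugt1a locus, 5 of 6 UGT fell in HN (83.3%, against 17.2% of all tested genes, median -2.05). Lower in PEC than in Control mice were 5 (83.3%, median -1.52), with the share of all tested genes given above. In PEC against HN 2 rose (33.3%, against 16.6%) and 1 fell (16.7%, against 17.7%), with a median of 0.18. The fall of Ugt2b34 in HN and the rise of Ugt3a1 in PEC against HN were lost with library totals alone and with limma. The fall of Ugt2b5 in PEC against HN was lost with only the groups compared and when any mouse but PEC 2 was left out.

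Of the SULT, Sult1d1 (ENSMUSG00000029273, chromosome 5, 87554645 to 87569027, minus strand), which sulfates catecholamines and their metabolites, was the most abundant. Sult1d1 was measured at 461, 401 and 345 FPKM in Control mice 2, 4 and 5, 243, 172 and 172 in HN mice 4, 8 and 12, and 152, 171 and 155 in PEC mice 1, 2 and 3. Every Control mouse was above every HN mouse, and every PEC mouse just below every HN mouse. Sult1d1 fell in HN, -1.53 (SE 0.16, adjusted p = 8.51e-05), and was lower in PEC than in Control mice, -1.59 (SE 0.16, adjusted p = 7.65e-05). Against HN the estimate was -0.06, not called, and turned to 0.14 without HN 4 and to 0.41 after removal of length and GC content.

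Sult1c2 and Sult1a1, which act on phenols, came next in abundance. Sult1c2 was at 23.8, 34.2 and 28.4 FPKM in Control mice, 26.1, 26.6 and 30.4 in HN mice, and 38.6, 29.1 and 41.5 in PEC mice, with overlap between all groups. It rose in PEC against HN, 0.63 (SE 0.16, adjusted p = 0.0116), but not without PEC 1 (0.58) or PEC 3 (0.54), with library totals alone (0.41), with limma (0.37) or with no filter on low values (0.58). In HN it was -0.55, not called, and was called lower without Control 2 (-0.68) or HN 12 (-0.61) and after removal of length and GC content (-0.66). Sult1a1 was at 11.3, 11.6 and 8.72 FPKM in Control mice, 16.7, 10.1 and 8.86 in HN mice, and 12.1, 14.2 and 19.4 in PEC mice and was called in no comparison. Without HN 4, its highest HN mouse, it was called lower in HN (-0.66) and higher in PEC against HN (0.93), while its HN estimate was 0.20 with library totals alone and 0.12 with limma. Sult1b1, at 1.01, 1.37 and 1.22 FPKM in Control mice, 1.23, 0.64 and 1.15 in HN mice, and 1.14, 1.05 and 1.1 in PEC mice, was called lower in HN at -0.75. That call was lost when any library but Control 2 or HN 4 was left out, with values from -0.84 to -0.50, with library totals alone (-0.23), with limma (-0.14), with no filter on low values (-0.76) and with only the groups compared (-0.72). After removal of length and GC content it was called higher in PEC against HN (0.96) and its estimate against Control turned to 0.23.

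Sult4a1, best known from brain, and Sult5a1 were low and went up. Sult4a1 was at 0.02, 0 and 0.04 FPKM in Control mice, 3.89, 3.29 and 4.25 in HN mice, and 1.89, 1.72 and 1.08 in PEC mice. Control mice were near 0, with 5, 0 and 8 counts, and every PEC mouse was below every HN mouse. It rose in HN, 6.99 (SE 0.65, adjusted p = 3.76e-05), and was higher in PEC than in Control mice, 5.94 (SE 0.63, adjusted p = 8.95e-05). Between PEC and HN it was -1.05 and not called, but was called lower without Control 4 (-1.05), with DESeq2 (-1.06), with library totals alone (-1.27), with limma (-0.92) and with only the groups compared (-1.04). Sult5a1 was at 0.2, 0.21 and 0.09 FPKM in Control mice, 0.66, 0.55 and 0.45 in HN mice, and 1.5, 0.76 and 1.06 in PEC mice, in the order Control, HN, PEC without overlap. It was higher in PEC than in Control mice, 2.44 (SE 0.37, adjusted p = 0.000603). The step in HN (1.21) was lost without HN 4 (1.05) and with limma (0.41), and the step in PEC (1.22) without HN 8 (1.22), HN 12 (1.09) or PEC 1 (0.94), with limma (0.43) and after removal of length and GC content (0.91). Sult2b1 was called in no comparison, but was called higher in PEC than in Control mice with DESeq2 (0.79), with library totals alone (1.08) and without Control 4 (1.07) or PEC 2 (0.98).

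Genes that supply or complete these reactions were counted from lists that also drew on earlier results of these data. Of 15 tested genes of cofactor supply, 11 fell in HN and 5 rose in PEC against HN, with medians of -1.05 and 0.27, and 9 were lower in PEC than in Control mice (-0.78). These counts depended on the scaling. Library totals alone gave 5 lower and 1 higher in HN (median -0.51), 2 higher and 1 lower in PEC against HN (0.04), and 4 lower and 1 higher in PEC than in Control mice (-0.47), and limma gave 6 lower and 1 higher, 2 higher and 1 lower, and 4 lower and 1 higher. Without PEC 2 only 2 rose in PEC against HN, and 3 with no filter on low values. Por, the reductase that feeds electrons to every CYP2 enzyme, was at 48.4, 56.6 and 56.98 FPKM in Control mice, 34.2, 34.7 and 40.4 in HN mice, and 37.3, 43.2 and 32.6 in PEC mice. It fell in HN (-1.07), was not called between PEC and HN, and was lower in PEC than in Control mice (-0.78). With library totals alone both of its calls were lost (-0.54 and -0.47), and so they were with limma (-0.55 and -0.51). Papss2, which makes the sulfate donor of SULT, gave -1.40 for HN against Control, 0.60 for PEC against HN and -0.79 for PEC against Control, where the rise in PEC was under the fold threshold without HN 8 (0.55) or PEC 2 (0.47), with library totals alone (0.38), with limma (0.35) and with no filter on low values (0.56). The last call of Papss2 was lost with library totals alone (-0.49), with limma (-0.53) and after removal of length and GC content (-0.57). Papss1, with the same role, gave -0.65 and -0.62 against Control, where the first was lost without Control 5 (-0.53), with library totals alone (-0.12) and with limma (-0.15). The second was lost without Control 5 (-0.50), PEC 1 (-0.58) or PEC 3 (-0.56), with library totals alone (-0.31), with limma (-0.34) and at a floor of 1 FPKM (-0.58). Ugdh, which makes the sugar donor of UGT, was called lower in PEC against Control (-0.59) and lost this call without Control 2 (-0.49), Control 4 (-0.54), PEC 1 (-0.58) or PEC 3 (-0.53), with library totals alone or limma (-0.29 each), at a floor of 1 FPKM (-0.55), with only the groups compared (-0.57) and after removal of length and GC content (-0.37).

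Gclc, which catalyses the limiting step of glutathione synthesis, was at 187, 167 and 114 FPKM in Control mice, 59.8, 143 and 66.9 in HN mice, and 84.2, 96.7 and 94.4 in PEC mice. HN 8 lay among the Control mice, and the other HN mice below them. The fall in HN was -1.29, not called with library totals alone (-0.77). Gclc was also lower in PEC than in Control mice (-1.02), but not without Control 2 (-0.88), Control 4 (-0.99), PEC 1 (-0.96) or PEC 3 (-1.03), or with library totals alone or limma (-0.73 each). Cyb5a, an electron carrier for P450, gave -1.64 in HN and 1.45 in PEC against HN.

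The mercapturate pathway, which turns glutathione conjugates into excreted products, has 9 listed genes, all of them tested. Of these, 8 fell in HN and 1 rose (median -1.66), 7 rose in PEC against HN (1.18), and 5 were lower and 1 higher in PEC than in Control mice (-0.74). The counts in HN were the same with library totals alone (-1.13), while 6 rose in PEC against HN (0.96) and only 1 was lower than in Control mice (-0.44). Against Control, 2 were lower with limma and 8 after removal of length and GC content, and none was higher without Control 5. Ggt1, which removes the glutamyl group, was at 179.9, 179.9 and 212 FPKM in Control mice, 79.8, 91.5 and 84.6 in HN mice, and 156, 192 and 146 in PEC mice, with -1.66 in HN and 1.18 in PEC against HN. Nat8, which adds the final acetyl group, gave -2.36 and 2.04. Abcc4, an efflux transporter, was the gene that rose in HN (0.97). Its excess in PEC over Control (0.67) was lost without Control 5 (0.57).

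Other enzymes of both phases were listed for comparison. Of 20 other phase I enzymes, 14 fell and 2 rose in HN (median -1.31), and 12 rose in PEC against HN (0.82). Of 17 other P450, 12 fell and 4 rose in HN (-1.83), and 9 rose and 1 fell in PEC against HN (0.96). Of 8 other phase II enzymes, 3 fell and 3 rose in HN (-0.45), and 3 rose and 1 fell in PEC against HN (0.21). On library totals alone the HN medians were -0.80, -1.29 and 0.07 for the phase I, P450 and phase II lists, with 12, 9 and 2 lower and 2, 4 and 3 higher. In PEC against HN 11, 8 and 1 then rose, with medians of 0.61, 0.74 and -0.02. Without Control 2 only 1 phase I enzyme rose in HN, without HN 4 no P450 fell in PEC against HN, and without HN 8 or PEC 1 only 1 phase II enzyme rose.

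Of 17 tested regulators of these families, 6 fell and 2 rose in HN (median -0.19), 7 fell and 3 rose in PEC against HN (-0.38), and 10 were lower and 1 higher in PEC than in Control mice (-0.94). On library totals alone 5 fell and 5 rose in HN (0.33), 8 fell and 1 rose in PEC against HN (-0.60), and 10 were lower and 2 higher in PEC than in Control mice (-0.63). Only 1 rose in HN without Control 2, HN 4 or HN 12 and only 1 rose in PEC against HN without PEC 2, while 2 were higher in PEC than in Control mice without Control 4, Control 5 or PEC 3. After removal of length and GC content the median of PEC against HN turned to 0.13. Hnf4a drives many genes of the proximal tubule and liver. Hnf4a was at 188, 178 and 158 FPKM in Control mice, 82.8, 82.7 and 91.7 in HN mice, and 107, 119.8 and 111 in PEC mice and gave -1.52 for HN against Control, 0.63 for PEC against HN and -0.89 for PEC against Control, where the rise in PEC was under the fold threshold without PEC 2 (0.58), with library totals alone (0.41), with limma (0.39) and with no filter on low values (0.58).

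The receptors that sense foreign compounds were low. Nr1i2, the pregnane X receptor, was at 1.74, 1.83 and 1.25 FPKM in Control mice, 1.49, 2.34 and 2.11 in HN mice, and 3.79, 4.56 and 3.95 in PEC mice, and rose in PEC against HN (1.29) and exceeded Control (1.09). Ahr, the aryl hydrocarbon receptor, was at 1.44, 1.46 and 1.26 FPKM in Control mice, 6.32, 6.25 and 5.81 in HN mice, and 1.75, 1.44 and 2.44 in PEC mice, rose in HN (1.65) and fell in PEC against HN (-1.47). Nr1i3, the receptor that mediates phenobarbital induction of Cyp2b10, was under the floor at 0.26, 0.24 and 0.06 FPKM in Control mice, 0.04, 0.05 and 0.04 in HN mice, and 0.27, 0.31 and 0.33 in PEC mice. Ghr, the receptor of growth hormone, which is known to set levels of several Cyp2 genes, fell in HN (-1.53) and was lower in PEC than in Control mice (-1.21).

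The other regulators that fell in PEC against HN were Ppara, Cebpb, Nr3c1, Arnt, Esr1 and Cebpa. Ppara, a receptor of fatty acids that induces Cyp4a genes, was at 13.1, 15.6 and 14.7 FPKM in Control mice, 11.1, 6.99 and 5.95 in HN mice, and 1.74, 2.46 and 1.6 in PEC mice, highest in Control and lowest in PEC mice without overlap. It gave -1.34 for HN against Control, -1.82 for PEC against HN and -3.16 for PEC against Control, all 3 called. Cebpb, a factor of the acute phase response, was at 15.2, 10.96 and 7.64 FPKM in Control mice, 44.4, 25.8 and 23.1 in HN mice, and 2.51, 3.63 and 8.16 in PEC mice. It fell in PEC against HN, -2.48 (SE 0.47, adjusted p = 0.00281). In HN it was 0.98, not called, but was called higher with DESeq2 (1.00), with library totals alone (1.49), with limma (1.38), with only the groups compared (1.01) and without PEC 3 (0.98). Against Control its shortfall in PEC (-1.50) was lost without Control 2 (-1.23), PEC 1 (-1.19) or PEC 2 (-1.33) and after removal of length and GC content (-1.06). Nr3c1, the glucocorticoid receptor, fell in PEC against HN (-0.80) and was lower in PEC than in Control mice (-0.98). Arnt, the partner of Ahr, gave -0.68 in PEC against HN, lost without PEC 3 (-0.50) and after removal of length and GC content (-0.42). Esr1, an estrogen receptor, gave -0.83, lost without HN 12 (-0.71) and with limma (-0.42). Cebpa (-1.61) kept this call in 8 of 18 alternatives, and lost it when any library but Control 2 or PEC 2 was left out (-1.66 to -1.23).

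Markers of kidney cell types differed between the groups. The 5 markers of the early proximal tubule, all tested and led by Slc34a1, summed to 1079.9, 1107 and 1166 FPKM in Control mice, 366, 356 and 362 in HN mice, and 650.0, 772 and 458 in PEC mice. The 4 of its straight part, led by Slc7a13, summed to 564, 608 and 752 FPKM in Control mice, 122.1, 159 and 161 in HN mice, and 113, 199 and 117 in PEC mice. Both sums were lower in HN than in Control mice without overlap, and 4 of the 5 early and all 4 straight part markers were called lower. Atp11a lost this call with library totals alone (-0.63). The early marker not called, Slc5a12 (-1.09), was called lower with DESeq2, with only the groups compared, without PEC 2 or PEC 3 and after removal of length and GC content. Between PEC and HN mice the early sum did not overlap and the straight part sum did, while the edgeR medians over the markers were 0.71 and 0.68 (0.49 and 0.45 with library totals alone, 0.43 and 0.40 with limma). Of the early markers 4 rose in PEC against HN, among them Slc34a1 (1.25). On FPKM 1 of the 5 was above HN without overlap, 1 was below HN without overlap, and 3 overlapped. Only 2 rose with library totals alone, with limma and without HN 8 or PEC 2, since Slc5a2 (0.63) and Lrp2 (0.71) were then not called, at 0.41 and 0.49 with library totals alone. Slc5a2 was also not called without HN 12 (0.61) or PEC 1 (0.58), with no filter on low values (0.58) and after removal of length and GC content (0.27). Slc5a12 gave -1.06, not called, but was called lower without PEC 2 (-1.91), with DESeq2 (-1.07), with library totals alone (-1.29) and with limma (-1.42). In the straight part Cyp7b1 rose (0.92) and Atp11a fell (-1.32), while Slc7a13 (0.43) and Slc22a7 (1.40) were not called. Slc7a13 was called higher after removal of length and GC content (0.94) and Slc22a7 without PEC 3 (1.78).

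Injury, inflammation and scar markers were higher in HN. The 3 markers of injured tubule, led by Havcr1, summed to 1.75 to 4.74 in Control, 482 to 495 in HN and 298 to 350.2 in PEC mice. The 4 macrophage markers, led by Lyz2, ranged over 28.5 to 32.2 in Control, 789 to 899 in HN and 307 to 411 in PEC mice, and the 4 fibroblast markers, led by Col3a1, over 15.5 to 20.9 in Control, 212 to 234 in HN and 83.4 to 104 in PEC mice. The 3 lymphocyte markers, led by Jchain, ranged over 1.69 to 4.83 in Control, 13.8 to 28.5 in HN and 1.49 to 3.13 in PEC mice. For each of these sums HN mice were above all Control mice, and PEC mice below all HN mice. By marker, 3 of 4 macrophage, 3 of 4 fibroblast and 1 of 2 tested lymphocyte markers fell in PEC against HN, whereas the injured tubule markers Havcr1 (-0.53), Lcn2 (-0.03) and Krt20 (-0.32) were not called, and the FPKM of PEC and HN mice overlapped for 2 of these 3. Havcr1 was called lower without PEC 2 (-0.76), with library totals alone (-0.76) and with limma (-0.80).

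**Figure D5:**
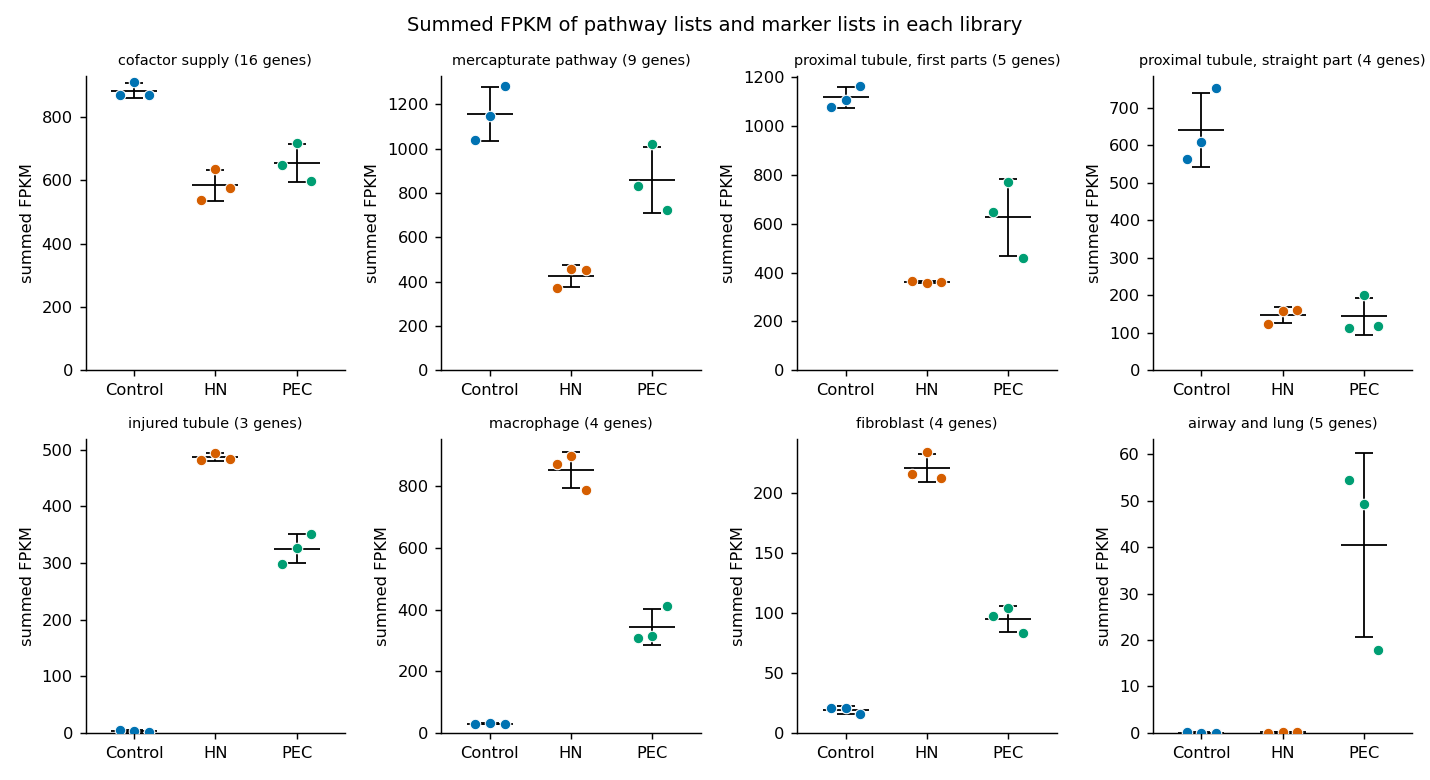
Summed FPKM (vertical axes) of 2 pathway lists and 6 marker lists in each mouse, as points, with the group mean and SD as black bars (n = 3). The mercapturate and early proximal tubule lists are lowest in HN, the straight part list is low in HN and PEC, and airway markers appear in PEC mice, at 17.9 to 54.5.

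Markers of other parts of the nephron were also summed. Thick limb (2 markers, led by Umod) ranged over 1025 to 1168 in Control, 1348 to 1502 in HN and 1184 to 1288 in PEC mice, and distal tubule (Slc12a3) over 44.1 to 53.4 in Control, 42.4 to 47.8 in HN and 55.4 to 78.3 in PEC mice. The thick limb sum is mostly Umod, which was called in no comparison on TMM scaling and higher in HN with library totals alone (0.63) or limma (0.60), while Slc12a1 was lower in HN (-1.37) and in PEC (-1.42) than in Control mice. Slc12a3 fell in HN (-0.63) and rose in PEC against HN (0.82), where the fall was lost without Control 5 (-0.52), with library totals alone (-0.10) and with limma (-0.13), and the rise with limma (0.56). Collecting duct (3, led by Aqp2) ranged over 152 to 340.3 in Control, 109.5 to 167 in HN and 163 to 244 in PEC mice and endothelium (3, led by Emcn) over 25.1 to 28.01 in Control, 28.1 to 30.2 in HN and 22.8 to 35.6 in PEC mice. Of the collecting duct markers Aqp2 (-1.44) and Fxyd4 (-0.98) fell in HN. Fxyd4 was not called with library totals alone (-0.45), and neither was called with limma (-0.88 and -0.44). Fxyd4 and Atp6v1g3 rose in PEC against HN (1.41 and 1.13). Of the endothelial markers Kdr fell in HN (-0.96, but -0.43 with library totals alone and -0.41 with limma, not called). Emcn rose in PEC against HN (0.61), a call lost without HN 8 (0.58), HN 12 (0.57) or PEC 3 (0.40), with library totals alone (0.39), with limma (0.32) and with no filter on low values (0.56). All of these markers were found in all 3 groups.

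Markers of tissue outside the kidney were also read. The 4 liver markers, led by Serpina1a, which kidney also makes, ranged over 18.6 to 51.1 in Control, 35.7 to 46.1 in HN and 69.01 to 94.8 in PEC mice, and Alb was at 2.3, 1.79 and 1.6 FPKM in Control mice, 0.61, 0.66 and 0.38 in HN mice, and 4.02, 2.7 and 5.41 in PEC mice. With TMM on all 9 libraries, the 3 tested liver markers all rose in PEC against HN (median 2.46), without overlap on FPKM. Against Control, 1 of the 3 was lower in HN and 2 were higher in PEC mice. The 4 adipocyte markers, led by Adipoq, ranged over 0.05 to 4.01 in Control, 0.21 to 8.91 in HN and 0.16 to 109 in PEC mice, highest in PEC 3. The 2 erythroid markers, led by Hba-a1, ranged over 171 to 273 in Control, 32.5 to 50.4 in HN and 187 to 225 in PEC mice. The 6 adrenal markers, led by Akr1b7, ranged over 1.67 to 2.63 in Control, 3.6 to 5.36 in HN and 3.45 to 4.51 in PEC mice, with 1 at 0 in every library. Muscle (3, led by Acta1) reached at most 0.64, with 1 at 0 in every library. The part of these cell types in the results on the members was not tested.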

How the data were processed

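The authors deposited a table of whole-number counts per gene, without normalization. The authors also deposited FPKM for the same genes and libraries. The submitters' processing notes name Bowtie 0.12.2 and the builds mm8 and mm9, while gene coordinates in the table are GRCm38 and equal those of GENCODE M21 for 51991 of 55144 genes. The counting program and its use of strand are not given in the sources used here. Members and lists were chosen with earlier results of these data known.

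One model over all 9 libraries was fitted to the counts with edgeR 4.0.16 in R 4.3.3 (glmQLFit, glmQLFTest, TMM), and p-values were adjusted by Benjamini and Hochberg over the 15508 tested genes. The test was also run on simulated counts, and the outcome is not reported here. Alternatives were DESeq2 1.42.0, median-of-ratios factors, library totals alone, limma 3.58.1 on log2(FPKM + 1) and log2(FPKM + 0.1), other filters and thresholds, only the groups compared, and leaving out each mouse. Removal of length and GC content (a spline with 5 degrees of freedom per library) and sums over Ugt1a or near-identical genes (at least 95% identity over at least 50% of the shorter transcript) were chosen after seeing the data, as were the other scalings and left-out mice applied to these sums. With 3 mice per group, an exact test of a single gene cannot reach p under 0.05. Counts of replicates differed by more than sampling noise in every pair (chi-square per degree of freedom 77.0 to 276).

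Genes named by rule are the 5 members of each family with the highest mean FPKM and, per comparison, the 2 largest called rises and falls, and of each list the called genes and chosen heads (Por, Nfe2l2, Ahr, Nr1i2, Nr1i3, Hnf4a, Ugdh, Papss1, Papss2, Gclc). Beyond these heads only some of the called list genes are named, with their values known. Further members, among them Cyp2a5, Cyp2c23, Cyp2d9, Cyp2d22, Cyp2f2, Cyp2j6, Cyp2j9, Gsta4, Gstk1, Gsto1 and Ugt2b34, were named after their values were seen. Some listed genes and 1 motif are not reported here. Figures were drawn with matplotlib 3.10.9 in python 3.11.15.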

Additional observations from a re-analysis of the deposited data

How the results depend on the processing

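No paired analysis was possible because Control and HN share 1 replicate number, Control and PEC 1, and HN and PEC 0, and nothing ties mice of the same number. The counts of members called in each direction stayed within 1.5 times the value in the report under every alternative, with these exceptions for PEC against HN. Members called higher were 19 at a fold change of at least 2. Members called lower were 1 with only the groups compared, at a fold change of at least 2, after removal of length and GC content and with the Ugt1a genes summed, 0 with near-identical members summed, and 0 to 2 when 1 mouse was left out.

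With FPKM rescaled to a common sum, the CYP2 sums were 1506 in Control and 672 in HN mice, the GST sum 696 in HN, the UGT sums 1104 in Control and 626 in HN, and the SULT sums 289.7 in HN and 201 in PEC. Divided by the TMM factor, CYP2 was 1996 in Control and 471 in HN, GST 737 in Control and 488 in HN, UGT 1467 in Control and 438 in HN, and SULT 536 in Control.

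The sign of some values turned, of which Ugt1a5 in HN against Control was called and the others were not. For HN against Control, with library totals alone, log2(FPKM + 1) and log2(FPKM + 0.1), Gstm5 was 0.0297, 0.0085 and 0.0087, Gstt1 0.38, 0.35 and 0.35, and Sult1a1 0.20, 0.12 and 0.13. Ugt2b37 was 0.0568 for PEC against Control with library totals alone. After removal of length and GC content, Sult1d1 was 0.41 and Ugt2b37 0.0688 for PEC against HN, and Gstp1 was -0.21, Sult1b1 0.23 and Ugt2b37 0.23 for PEC against Control. Leaving out 1 mouse, values ranged from -0.42 to 11.51 for Ugt1a5 and -0.014 to 0.35 for Ugt2b37 in HN against Control, -0.16 to 0.14 for Sult1d1 in PEC against HN, and -0.0514 to 0.22 for Sult1c2 and -0.63 to 0.0262 for Ugt2b37 in PEC against Control. The cause was not tested. Low members such as Cyp2b10, Sult4a1 and Gstp3 rest on few counts in 1 group, which limits their fold changes.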
